A study of Homo sapiens with 8 samples.

Results

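Expression of the genes of the Notch pathway was followed in MDA-MB-231 cells, a metastatic human breast cancer line, before and after TGFβ. The 10 members were chosen by symbol, with earlier results of these arrays known: the ligands JAG1, JAG2 and DLL1, the receptors NOTCH1, NOTCH2, NOTCH3 and NOTCH4, and the target genes HES1, HEY1 and HEY2. All probe sets that the platform annotation assigns to 1 of these genes and to no other gene were taken. This gave 27 of 54613 probe sets and covered all 10 members among 19777 genes. A further probe set assigned to NOTCH2 and to its NOTCH2NL copies was kept apart. The cells of all 8 arrays carried a retroviral hairpin RNA against GFP, which has no target in these cells, so that the mutant p53 the series is concerned with was left in place. The labels do not say whether the infected line was a clone or a pool. After 24 h in serum-free medium, the cultures of 4 arrays received no TGFβ and those of the other 4 received it for 3 h, at a dose the labels give as 5 µg/ml, where the unit may be an error. The arrays of each group carry the replicate letters A to D. The p53-depleted cells of the design were not analysed here.

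Notch receptors are membrane proteins that are cut when a ligand on a neighbouring cell pulls on them. The fragment released inside the cell enters the nucleus, joins the DNA-binding protein RBPJ and coactivators of the MAML family, and switches on target genes, of which the HES and HEY families of transcriptional repressors are the best known. In epithelial and breast cancer cells TGFβ and Notch signalling are known to meet at ligand genes such as JAG1 and at target genes such as HES1 and HEY1. JAG1 on breast cancer cells is also known for its part in bone metastasis.

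The comparison asks whether the TGFβ treatment moved the RNA of the ligands, the receptors or the targets. The promoters of the ligand gene that rose (JAG1) and of a pair of classical targets (HES1 and HEY2) are shown first, so that the response can be read beside the sequence. They are RefSeq sequences of build GRCh38.p14, each 280 bases long, from 250 bases before to 30 bases after the gene's start, 5′ to 3′ on the gene's strand. Capitals mark matches, on either strand, to any of 3 motifs. The RBPJ motif searched was TTCCCAC. The SMAD box was CAGAC. For AP-1 the motif was TGANTCA. No matches overlapped in the windows shown. The windows are chr20:10673970-10674249 on the minus strand for JAG1, chr3:194135898-194136177 on the plus strand for HES1, and chr6:125749382-125749661 on the plus strand for HEY2.
JAG1: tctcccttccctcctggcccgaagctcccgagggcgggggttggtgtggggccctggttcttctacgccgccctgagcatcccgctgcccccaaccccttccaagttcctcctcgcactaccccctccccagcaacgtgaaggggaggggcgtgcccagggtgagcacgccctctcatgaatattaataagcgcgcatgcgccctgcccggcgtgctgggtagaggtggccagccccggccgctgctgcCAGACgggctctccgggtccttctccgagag
HES1: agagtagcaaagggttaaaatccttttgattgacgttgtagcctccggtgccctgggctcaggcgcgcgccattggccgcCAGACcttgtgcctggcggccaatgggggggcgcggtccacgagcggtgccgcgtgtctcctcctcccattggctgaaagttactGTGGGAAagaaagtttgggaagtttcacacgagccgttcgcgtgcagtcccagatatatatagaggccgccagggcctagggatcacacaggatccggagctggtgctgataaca
HEY2: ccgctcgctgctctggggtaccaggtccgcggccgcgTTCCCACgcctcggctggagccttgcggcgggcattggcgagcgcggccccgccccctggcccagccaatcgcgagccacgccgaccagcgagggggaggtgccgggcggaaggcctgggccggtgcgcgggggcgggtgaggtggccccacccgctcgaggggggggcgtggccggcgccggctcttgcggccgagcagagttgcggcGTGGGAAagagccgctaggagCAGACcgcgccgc

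Positions are counted from the start of the gene, with negative numbers before it. The JAG1 window held no RBPJ motif and a single SMAD box whose first base lies at position -1. The HES1 window held 1 RBPJ motif at position -85 and 1 SMAD box at -170. The HEY2 window held 2 RBPJ motifs, at -213 and -4, and 1 SMAD box at 17. Among all 35116 promoters of the table, windows of the same length held the RBPJ motif in 5.92%, the SMAD box in 42.7% and the AP-1 motif in 7.35%. Promoters were found for 8 of the 10 members, DLL1 and HEY1 being the others. The RBPJ motif was present in 2 of these 8, the SMAD box in 4 and the AP-1 motif in 1, that of NOTCH4 at -18. The NOTCH4 window also held a SMAD box at -1, the same position as in JAG1. These matches describe letters only, and no binding was measured.

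Values are RMA signals on a log2 scale, 1 per probe set and array, with array medians from 4.62 to 4.66. There are no detection calls, and a signal near or below these medians may be background. The line's own markers VIM, CD44, AXL and EGFR had signals of 9.05 to 13.81 on all arrays. The luminal markers ESR1, PGR, GATA3, CDH1 and EPCAM lay between 3.03 and 8.53, with EPCAM at 8.16 or above, and CDH1 passed the test as higher after TGFβ, from a mean of 4.08 to 4.98 (adjusted p = 0.00579, limma over genes). Of the markers of other cell types, those of leukocytes and fibroblasts stayed at or below 5.35, and among endothelial markers PECAM1 reached 7.72. SMAD7, the inhibitory SMAD that TGFβ induces, checked the treatment: it went from 5.98 ± 0.41 to 7.78 ± 0.34 (SD, n = 4 per group), and limma gave a log2 fold change of 1.81 ± 0.21 SE with an adjusted p of 0.0039. The treated array of letter A differed from the other 7 in its RNA control probe sets, with a 3′ minus 5′ difference of 1.68 for ACTB against 0.63 to 0.89, and of 0.54 for GAPDH against 0.06 to 0.14 (log2). The labels call the replicates biological and do not describe how they were grown, and the p-values rest on the spread among these arrays.

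Among the 10 members JAG1 was the gene whose RNA rose after TGFβ. It encodes Jagged1, a membrane-bound ligand of the Notch receptors. Probe set 231183_s_at passed the test, with a 1.93-fold increase, and 3 further JAG1 probe sets, 1.65-fold to 1.85-fold higher, passed when the letter was taken as a block. The remaining 2 JAG1 probe sets, both near the array median, did not pass. None of the 21 probe sets of the other 9 members passed in either limma fit. Of all probe sets 0.256% passed without the block and 1.75% with it. At an unadjusted p under 0.05 there were 0 of the 21 in either, against 7.44% and 13.2% of all. The log2 fold changes of the 21 lay between -0.24 and 0.13.

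In number, 1 of 27 member probe sets was called at an adjusted p of 0.05 (limma, Benjamini-Hochberg over all probe sets tested), against 0.256% of all probe sets. With the letter as a block 4 of 27 were called, against 1.75% of all probe sets called and 0.758% called higher. All 4 were higher and belong to 1 gene, JAG1, so they are not independent of each other. At an unadjusted p under 0.05 there were 4 of 27 without the block and 4 with it, against 7.44% and 13.2% of all. The median log2 fold change of the 27 was 0.04 and that of all probe sets 0.01. Groups did not overlap in 3 of the 27, all of them JAG1 and higher, against 4.75% of all probe sets, or 2.79% counting those higher after TGFβ. JAG1 was known as a responder when the members were named, so these shares describe the list and do not test it.

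**Figure D1:**
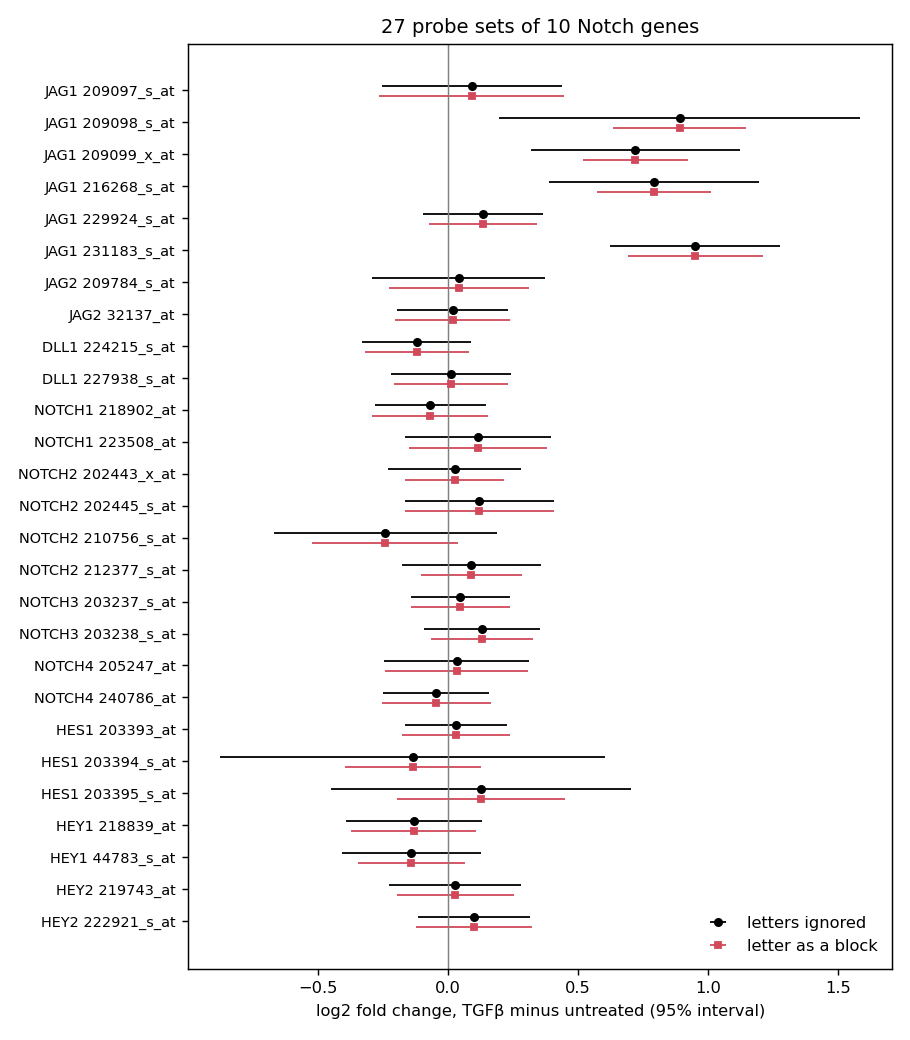
Log2 fold changes (TGFβ minus untreated, 4 arrays each) of the 27 member probe sets with 95% intervals, black circles from limma without the letters and red squares with the letter as a block. Intervals of 4 JAG1 probe sets lie above 0 in both fits, and those of all other probe sets include 0.

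Probe set 231183_s_at of JAG1 (Entrez Gene 182) read 8.03, 8.01, 7.96 and 7.92 on the untreated arrays A to D and 9.35, 8.91, 8.91 and 8.55 on the treated ones. All 4 treated arrays lay above all untreated arrays, and the untreated arrays were nearly level. The means were 7.98 ± 0.05 and 8.93 ± 0.33 (SD, n = 4 in each group), and the difference of 0.95 ± 0.15 SE (log2) had a 95% interval from 0.62 to 1.28 (adjusted p = 0.0342, limma; 0.00444 with the block). It passed in 2 of the 8 fits that left out 1 array, without treated array A or treated array D. In the other 6 the log2 fold change stayed between 0.93 and 0.97 while the adjusted p lay between 0.0813 and 0.142 (limma). Without treated array A, the array with the 3′ excess, the log2 fold change was 0.81 (adjusted p = 0.0188, limma). With the block it passed whichever letter was left out, with adjusted p up to 0.0406.

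The brightest JAG1 probe sets, 209099_x_at and 216268_s_at, gave almost the same numbers on each array. Probe set 209099_x_at read 10.90, 11.74, 11.21 and 11.44 on the untreated arrays A to D and 11.77, 12.36, 11.99 and 12.05 on the treated ones. Letter A was lowest and letter B highest in both groups, and the groups did not overlap, although treated array A exceeded untreated array B only narrowly. The log2 fold change was 0.72 ± 0.18 SE without the letters (adjusted p = 0.228, limma) and 0.72 ± 0.09 SE with the block (adjusted p = 0.00515). Within letters A to D the rise was 0.87, 0.62, 0.78 and 0.61, while the untreated arrays alone spanned 0.84 from lowest to highest. For 216268_s_at the log2 fold change was 0.79 ± 0.18 SE, with an adjusted p of 0.177 in limma and 0.00486 with the block. Because the probes of such sets may be shared, the pair is not counted as independent evidence.

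Probe set 209098_s_at read 7.60, 8.79, 7.85 and 8.45 on the untreated arrays A to D and 8.27, 9.64, 9.13 and 9.21 on the treated ones. Here the groups overlapped, since untreated arrays B and D were brighter than treated array A, yet each treated array was brighter than the untreated array of its letter, by 0.67, 0.85, 1.28 and 0.76. The log2 fold change was 0.89 ± 0.31 SE (adjusted p = 0.5, limma) and ± 0.11 SE with the block (adjusted p = 0.00577). It was the probe set whose blocked call was lost without letter B (adjusted p = 0.0504, limma with the block). Treated array A was the lowest treated array in 209098_s_at, 209099_x_at and 216268_s_at and the highest in 231183_s_at, so the probe sets of JAG1 disagree on the order of the letters while they share the direction of the response. The part of the 3′ excess of that array in this order was not tested.

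The 2 JAG1 probe sets that did not pass, 209097_s_at and 229924_s_at, had signals from 4.45 to 5.12 on the 8 arrays, close to the array medians. Their log2 fold changes were 0.09 (95% interval -0.26 to 0.44) and 0.13 (-0.10 to 0.37). These intervals exclude the size of the rise seen with 231183_s_at. In 209097_s_at treated array A, at 4.45, lay below all other arrays, whereas letters B to D were higher after treatment by 0.13, 0.39 and 0.42. The platform names do not show which part of the transcript each set reads, and RMA understates changes near background.

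**Figure D2:**
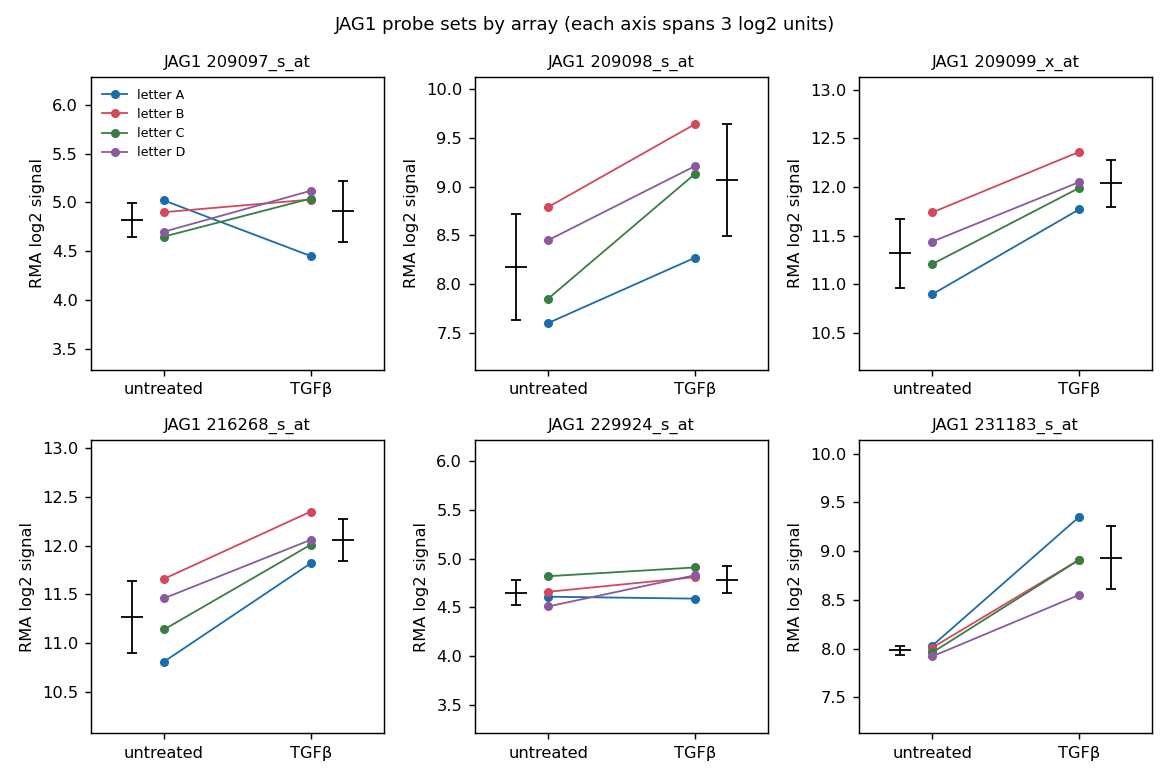
RMA log2 signals of the 6 JAG1 probe sets, untreated and treated, with a line for each letter A to D and black bars for the group mean ± SD (n = 4); each vertical axis spans 3 log2 units. In 4 probe sets every letter rises, and in 209097_s_at and 229924_s_at the signals stay between 4.45 and 5.12.

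With 1 probe set for each gene, the brightest, JAG1 was represented by 209099_x_at. Over 19777 genes its adjusted p was 0.154 in limma, and 0.00119 with the block. None of the 10 member genes passed in this fit (1, JAG1, at an unadjusted p under 0.05, against 8.14% of all genes), while 0.576% of all genes did, and with the block 1 of 10 passed, against 3.56% (1.39% higher and 2.18% lower). The genes whose 8 centred array values lay closest to those of JAG1 were SIK1, a salt-inducible kinase, with a root mean square difference of 0.11, ZNF175, a zinc finger protein, with 0.11, and SPECC1 with 0.12, where the median over all genes was 0.48 (log2). They had log2 fold changes of 0.74, 0.60 and 0.67, and passed with the block (adjusted p = 0.00314, 0.00663 and 0.00839, limma) but not without it (0.126, 0.409 and 0.171). With 8 arrays and that many genes, close profiles are found by the search itself, and this is given as a description.

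The other ligands stayed within narrow limits. JAG2 (Entrez Gene 3714), the second Jagged ligand, read 5.49, 5.52, 5.51 and 5.37 on the untreated arrays A to D with probe set 32137_at and 5.36, 5.39, 5.60 and 5.62 on the treated ones. The groups overlapped, and the log2 fold change was 0.02 with a 95% interval from -0.20 to 0.23 (adjusted p = 0.986, limma). Its other probe set, 209784_s_at, gave 0.04. Over both sets the intervals allow a rise of at most 1.30-fold and a fall of at most 1.22-fold on the RMA scale. DLL1 (28514), a ligand of the Delta-like family, had log2 fold changes of -0.12 with 224215_s_at, whose signals of 2.71 to 3.04 lay far below the array medians, and 0.01 with 227938_s_at, at 4.42 to 4.81. For DLL1 the intervals allow at most 1.18-fold up and 1.26-fold down, on a scale that understates changes at such low signals.

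The receptors did not pass either, where 0.256% of all probe sets passed without the block and 1.75% with it. NOTCH2 (4853) was the receptor with the brightest probe set: 202443_x_at read 10.33, 10.29, 9.95 and 10.21 on the untreated arrays A to D and 10.38, 10.30, 10.06 and 10.13 on the treated ones. The same letters were high and low in both groups, and the log2 fold change was 0.02 (95% interval -0.23 to 0.28; adjusted p = 0.983, limma). Of its 4 probe sets 3 had a positive sign and 1, 210756_s_at, a negative one. This set read 8.21, 8.48, 7.86 and 8.38 untreated and 7.50, 8.34, 7.91 and 8.22 treated, so that its log2 fold change of -0.24 ± 0.19 SE (adjusted p = 0.844, limma; 0.458 with the block) came mostly from letter A, with -0.71, against -0.15, 0.05 and -0.16 in B, C and D. Treated array A is the array with the 3′ excess, and its part in this difference was not tested.

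NOTCH1 (4851) lay at 6.51 to 6.82 with 218902_at and at 4.53 to 5.08 with 223508_at, and its probe sets pointed in opposite directions, with log2 fold changes of -0.07 and 0.11. NOTCH3 (4854) had 0.05 and 0.13 and NOTCH4 (4855) 0.03 and -0.05, with signals between 4.33 and 5.57 on all arrays. In each of the 10 receptor probe sets the groups overlapped, which is common, since only 4.75% of all probe sets had groups without overlap. The intervals allow a rise of at most 1.31-fold for NOTCH1, 1.33-fold for NOTCH2, 1.28-fold for NOTCH3 and 1.24-fold for NOTCH4. In the same order they allow a fall of at most 1.22-fold, 1.59-fold, 1.11-fold and 1.19-fold. These limits hold on the RMA scale, which understates changes near background. NOTCH3, NOTCH4 and NOTCH1 223508_at lay near the array medians. The adjusted p was 0.836 or higher for every receptor probe set without the block and 0.458 or higher with it.

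None of the probe sets of the target genes passed the test at 3 h of TGFβ in either fit. Of all probe sets 0.256% passed without the block and 1.75% with it, so few calls would be found in any list this short. HES1 (3280), a repressor of the basic helix-loop-helix class, read 5.71, 6.83, 7.11 and 7.19 on the untreated arrays A to D and 5.95, 6.40, 7.02 and 6.92 on the treated ones with probe set 203394_s_at. Letter A was the lowest in both groups, and the letters differed by more than the groups. The log2 fold change was -0.14 with a 95% interval from -0.88 to 0.60 (adjusted p = 0.963, limma), narrowed to -0.40 to 0.13 with the block (adjusted p = 0.683).

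Probe set 203395_s_at of HES1 gave 4.93, 5.96, 6.32 and 5.99 untreated and 5.63, 5.84, 6.13 and 6.10 treated. In letter A the signal was higher by 0.70 after treatment, and in B, C and D the differences were -0.12, -0.19 and 0.11. Its log2 fold change of 0.13 (adjusted p = 0.954, limma) became -0.16 when untreated array A was left out (adjusted p = 0.803). The third set, 203393_at, stayed between 3.70 and 3.90 in all arrays. Over the 3 HES1 probe sets the 95% intervals allow a rise of up to 1.63-fold and a fall of up to 1.84-fold without the block. With the block the interval of the treated-to-untreated ratio ran from 0.759 to 1.09 for 203394_s_at and from 0.873 to 1.37 for 203395_s_at.

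HEY1 (23462) and HEY2 (23493) encode related repressors that carry the Notch signal in blood vessels and the heart. HEY1 read 6.07, 6.49, 6.02 and 6.03 untreated and 5.93, 6.16, 5.99 and 5.97 treated with 44783_s_at. It was lower in all 4 letters, by 0.03 to 0.33, and letter B was the highest in both groups. The log2 fold change was -0.14 ± 0.12 SE (adjusted p = 0.856, limma; 0.562 with the block), and -0.13 ± 0.12 SE with 218839_at, where 2 of 4 letters were lower. The intervals of both sets allow a rise of at most 1.09-fold and a fall of at most 1.33-fold. HEY2 lay at 2.58 to 2.96 and 3.84 to 4.20, below the array medians, with log2 fold changes of 0.03 and 0.10. Its intervals allow a rise of at most 1.24-fold and a fall of at most 1.17-fold on the RMA scale. Neither HES1 nor HEY2, whose windows shown above held the RBPJ motif, had a rise that passed the test. A link between motif and response was not tested.

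**Figure D3:**
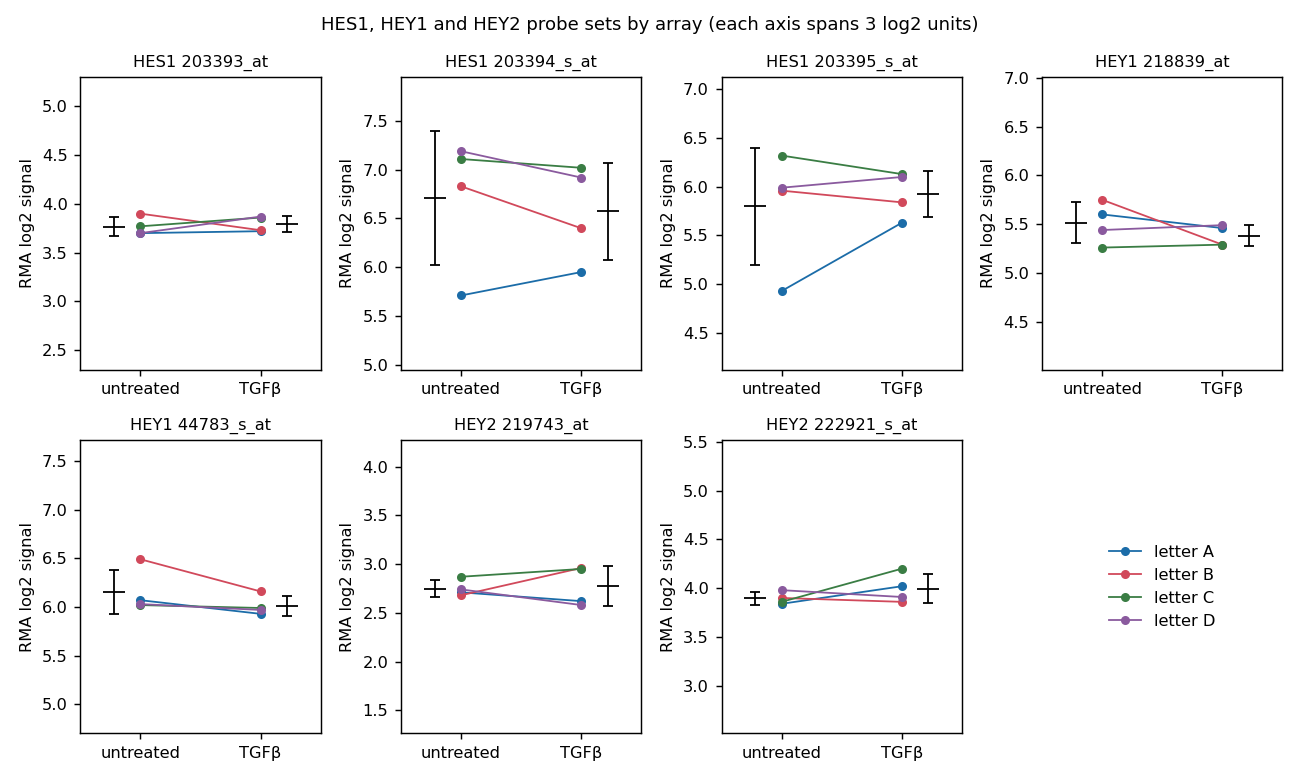
RMA log2 signals of the 7 probe sets of HES1, HEY1 and HEY2, untreated and treated, with a line for each letter and black bars for the group mean ± SD (n = 4); each vertical axis spans 3 log2 units. Letter A is lowest in HES1 203394_s_at in both groups. Treated and untreated arrays overlap in all 7, where 4.75% of all probe sets had groups without overlap.

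The wider pathway was described with 63 further genes. None of the 63 passed without the block (3 at an unadjusted p under 0.05, against 8.14% of all genes), and 0.576% of all genes did. With the block 2 rose and 1 fell, against 1.39% and 2.18% of all genes. Groups did not overlap in 2 of the 63, against 5.12% of all genes. The median log2 fold change of the 63 was -0.01, and that of all genes was 0.01. The 3 that passed with the block were SPEN, FURIN and NUMB, each a modifier of the signal and not a receptor or a ligand.

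SPEN, a large corepressor that holds RBPJ target genes silent, read 7.62, 7.80, 7.44 and 7.47 on the untreated arrays A to D and 8.32, 8.32, 7.98 and 8.09 on the treated ones. The groups did not overlap, and all 4 SPEN probe sets had a positive sign. The log2 fold change was 0.60 ± 0.12 SE, a 1.51-fold difference (adjusted p = 0.0616, limma; 0.00287 with the block). Of 11 corepressors measured SPEN passed as higher with the block and 10 did not pass, where 1.39% of all genes passed as higher and 2.18% as lower. The next by p was CTBP1 with -0.12 (adjusted p = 0.862).

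FURIN, the protease that cuts Notch receptors on their way to the cell surface and also matures TGFβ itself, read 7.50, 7.46, 7.20 and 7.21 untreated and 7.63, 7.92, 8.13 and 7.88 treated. All treated arrays lay above all untreated ones, and the group means differed by 0.55 ± 0.12 SE (log2; adjusted p = 0.114, limma; 0.0354 with the block). Without treated array A it passed with the letters ignored as well (adjusted p = 0.0382, limma). The 8 genes of receptor cleavage include the ADAM10 and ADAM17 sheddases and subunits of γ-secretase. Among them FURIN passed with the block and 7 did not, where 1.39% of all genes passed as higher and 2.18% as lower. The next by p was the γ-secretase subunit NCSTN with -0.10 (adjusted p = 0.899, limma).

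NUMB, an adaptor that removes Notch from the membrane, read 6.07, 5.68, 4.64 and 5.32 untreated and 4.96, 4.99, 4.58 and 4.11 treated. Its groups overlapped, since untreated array C was lower than treated arrays A and B, but it was lower in all 4 letters. The treated arrays and untreated array C lay near the array medians of 4.62 to 4.66, where a signal may be background. The log2 fold change was -0.77 ± 0.29 SE (adjusted p = 0.459, limma; 0.0279 with the block), measured by a single probe set. Of 15 genes of ligand activity and receptor turnover NUMB fell with the block and 14 did not pass, among them DTX3L at -0.20. Of all genes 1.39% passed as higher with the block and 2.18% as lower.

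No gene of the remaining lists passed in either fit, where 0.576% of all genes passed without the block and 3.56% with it. The 7 glycosylation genes, which include the Fringe enzymes that tune ligand choice, had a median of -0.08, with LFNG at 0.43 ± 0.31 SE and MFNG at 0.22 ± 0.13 SE. The LFNG difference came mostly from untreated array A, at 7.17. Untreated arrays B, C and D read 8.74, 8.64 and 8.77, and the treated arrays A to D 8.58, 8.73, 8.97 and 8.78. The 10 genes of the nuclear complex had a median of -0.01, with the acetyltransferase KAT2B at -0.40 ± 0.19 SE and CREBBP at 0.25 ± 0.17 SE. The 7 other target genes had a median of 0.05 and a range from -0.15 to 0.13, with HEYL and HES2 both at 0.13. The 5 other ligands lay between -0.14, for DNER, and 0.08, for DLL3.

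**Figure D4:**
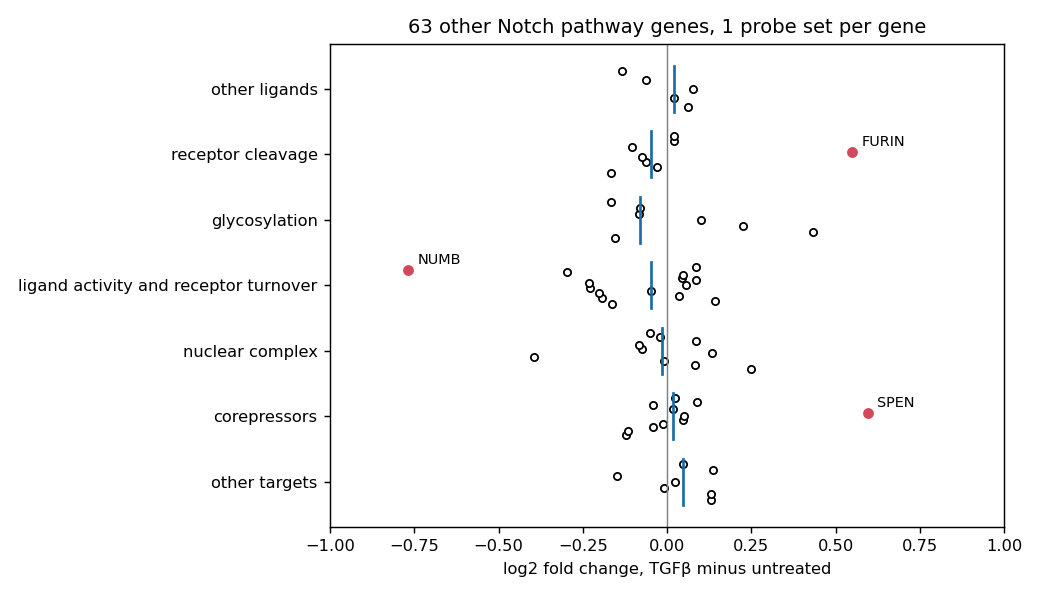
Log2 fold changes (TGFβ minus untreated) of 63 other Notch pathway genes by list, 1 probe set per gene; open circles did not pass, red circles passed at an adjusted p of 0.05 with the letter as a block, and blue lines are list medians. FURIN (0.55) and SPEN (0.60) lie to the right and NUMB (-0.77) to the left of the others.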

How the data were processed

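Deposited log2 values, 1 for each probe set on each array, come from RMA, per the submitters' processing notes. The log base was inferred from RMA and the range of values. The RMA version, the set of arrays normalized together and the genome build were not given in the sources used here. Per the labels' protocols, total RNA was extracted with Trizol and biotinylated cRNA was hybridised. Of 54675 probe sets 62 are Affymetrix controls, left out of the tests. Gene names came from GEO's 2016 annotation of the platform, in which 41091 probe sets name 1 gene, 1801 several and 11721 none, and 41037 Entrez identifiers were found in RefSeq with no symbol changed.

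Groups and letters came from the labels. The test of 4 treated against 4 untreated arrays used limma 3.58.1 under R 4.3.3 (lmFit, eBayes with the default prior, two-sided), over all 54613 probe sets and over 19777 genes with the brightest probe set of each, with Benjamini-Hochberg adjustment and a threshold of 0.05. The labels call the letters biological replicates and do not say whether letters match between groups. Deviations from the group means correlated within letters A, B, C and D (0.49, 0.69, 0.34 and 0.30 over genes, with a median of -0.22 between letters). Of the 8 arrays 6 had their best match in their own letter. The main fit left the letters out, and its errors and intervals are those given where no block is named. A fit with the letter as replicate block was run as an alternative, and its results stand beside each call it changes. Named were all members, from each list of other pathway genes those that passed (up to 4) or else the 2 with the smallest p, the 3 closest profiles to the member with the smallest p, and SMAD7. Members, lists and rules were chosen with earlier results of these data known. Alternatives were the block, median centring, quantile normalization again, the upper 60% of signals, a trended and robust prior, each array left out, probe sets of several transcripts left out, a gene's mean probe set, and the block with each letter left out.

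Both fits were tested on simulated data. Plots were made with matplotlib 3.10.9 (Python 3.11.15).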

Additional observations from a re-analysis of the deposited data

Results flagged for a closer look

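In 3 of 56 groups of 4 arrays (28 probe sets, 2 groups each) a single array lay far from the other 3; chance gives this in about 1 of 20 groups. JAG1 209097_s_at read 4.45 on treated array A against 5.03 or more on the other treated arrays. NOTCH3 203238_s_at read 4.64 on untreated array A against 4.36 or less on the others. HEY1 44783_s_at read 6.49 on untreated array B against 6.07 or less on the others.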

How the results depend on the processing

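With the letter as a replicate block 4 member probe sets, 1 member gene, 3 other pathway genes and 954 of all probe sets passed, in place of 1, 0, 0 and 140. The block with each letter left out gave 3 to 4 member probe sets: 4 without A, 3 without B, 4 without C and 4 without D. Leaving out each array in turn, letters ignored, gave 0 to 1 member probe sets, 0 to 1 other pathway genes and 33 to 240 of all probe sets (33 without untreated D, 36 without untreated C, 85, 50 and 42 without treated B, C and D, and 240 without treated A). Probe sets whose name suffix marks them as able to match several transcripts were also removed. All 6 JAG1 probe sets carry such a suffix, although the annotation assigns each of them to JAG1 alone. This left 8 member probe sets and none of JAG1, and 0 members passed. Among the other pathway genes 1 passed, the γ-secretase subunit APH1B, lower by another probe set (-0.50, adjusted p = 0.0461, limma). With its brightest probe set APH1B was at -0.07. After quantile normalization again the other pathway gene that passed was SPEN, higher (0.63, adjusted p = 0.0478, limma). Centring, quantile normalization again, the upper 60% of signals and a trended prior each kept 1 member probe set as passing. Why the counts moved was not tested. The direction of the 4 JAG1 probe sets that passed with the block was kept in every alternative that could be run. Signs turned only in values that passed in no fit: DLL1 227938_s_at was -0.0023 with centring and -0.0056 after quantile normalization again, which also gave -0.0001 for HES1 203393_at and for HEY2 219743_at. With 1 array left out JAG2 209784_s_at ranged from -0.0985 to 0.1132, JAG2 32137_at from -0.0277 to 0.0617, DLL1 227938_s_at from -0.0709 to 0.0581, NOTCH2 202443_x_at from -0.0582 to 0.0779, NOTCH4 205247_at from -0.084 to 0.104, NOTCH4 240786_at from -0.0826 to 0.0171, HES1 203394_s_at from -0.4692 to 0.0725, HES1 203395_s_at from -0.1633 to 0.3017 and HEY2 219743_at from -0.034 to 0.0927. Precision is set by having 4 arrays a group, and signals near background limit DLL1, HEY2, NOTCH3, NOTCH4 and 2 JAG1 probe sets.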

Other observations

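The probe set 227067_x_at, which the annotation assigns to NOTCH2 and to its human-specific NOTCH2NL copies together, read 8.76, 8.44, 8.65 and 8.62 on the untreated arrays A to D and 8.60, 8.50, 8.88 and 8.78 on the treated ones. The groups overlapped (log2 fold change 0.08 ± 0.11 SE), and which of the copies it reads cannot be told from the annotation.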
